A study of Mus musculus with 9 samples.

Results

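CD11b+ cells sorted from the spleens of tumor-bearing mice and taken for RNA without culture were compared with CD11b+ spleen cells of tumor-free mice. The comparison took in every probe set of the Affymetrix MG-U74Av2 array that is not a manufacturer's AFFX control, which is 12422 of 12488, on 6 of the 9 arrays of the series. The tumor-free group held 3 arrays, titled CD11b_Tumor free, and the fresh group held 3 arrays, titled CD11b_Tumor bearing at time 0. All mice were female and between 8 and 12 weeks old. The remaining 3 arrays were hybridized with tumor-bearing cells kept for 24 h in medium (cultured cells). Their values are cited only beside the fresh ones, but they also entered the tests through the estimate of the spread, the filter on low signals and the offset. No label names the strain, the tumor, its site or age, the purity of the sort or any pooling of mice. Whether replicates are separate mice is likewise unstated, and the p-values then measure only how far these samples spread, which may be technical.

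CD11b, the integrin alpha M chain encoded by Itgam, pairs with the integrin beta chain Itgb2 on neutrophils, monocytes, macrophages and some other leukocytes. In mice with tumors the spleen is known to fill with immature granulocytic and monocytic CD11b+ cells, many of which restrain T cells. The tail of the pancreas reaches the hilum of the spleen, and its acinar cells, which secrete digestive enzymes, are not known to carry CD11b. Genes of the exocrine pancreas are therefore described apart from the others below.

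Each value is a MAS5 signal, a scaled intensity on a linear scale, and differences were tested in limma on log2(signal + 7.83), written below as log2 differences with the standard error (SE) of the fit. The median signal of the 9 arrays lay between 33.4 and 42.8. Of the labelled cell type, all 10 markers were on the array, and none lay below the offset on all 6 arrays. Itgam had signals of 373, 244 and 256 on tumor-free 1, 2 and 3 and of 392, 414 and 585 on fresh 1, 2 and 3, and the groups did not overlap, but the log2 difference of 0.66 did not pass the test (limma adjusted p = 0.404). The summed signal of the 10 markers was 14964 to 16152 in the tumor-free and 18326 to 19238 in the fresh arrays, and 0 of the 10 were called. Cd14 weighed heavily in this sum, at 7644, 2005 and 1287 on tumor-free 1, 2 and 3 and 7779, 7766 and 8194 on fresh 1, 2 and 3. The other markers differed in both directions, such as Cybb (0.91) and Csf1r (-0.73), so the sum shows no shared rise of the markers.

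Tumor-free 1 stood apart from tumor-free 2 and 3. Across probe sets it correlated with them at r = 0.827 and 0.823, whereas they correlated with each other at 0.957. Its r with the fresh arrays was 0.851, 0.825 and 0.847, and with the cultured arrays 0.839 to 0.86, so 5 of these 6 values exceeded those with its own group. Its beta-actin 3'/5' ratio, a measure of RNA integrity, was 2.57 against 0.994 and 1.19, and its mean log2 spike-in signal was 10.36 against 9.77 and 9.65. The actin ratio of fresh 1, 2 and 3 was 1.595, 1.58 and 1.35, above tumor-free 2 and 3 and below tumor-free 1. The part of RNA integrity in the differences between the groups was not tested. Camp, a neutrophil granule peptide, had a signal of 150 on tumor-free 1, 8809 and 10458 on the other tumor-free arrays and 7725 to 8781 on the fresh arrays. The neutrophil markers Ngp, Ltf, Ly6g, Mmp9 and Csf3r were likewise lowest on tumor-free 1 within its group. Mmp8, S100a8 and S100a9 were highest there, with Mmp8 at 1640 against 141 and 218 and S100a8 at 15965 against 11943 and 12560. Neutrophil markers as a set were thus not absent from tumor-free 1. Vcam1, an adhesion molecule of splenic red pulp macrophages, stood at 55.2 on tumor-free 1 against 1975 and 2316. The summed signal of 7 B cell markers was 228 on tumor-free 1 against 2798 and 3193. Markers of stroma went the other way, with Dcn, the collagen-binding decorin, at 559 on tumor-free 1 against 24.8 and 8.51. Activation genes did so too, with Il6 at 302 against 19.9 and 10.6. For such genes 1 array holds most of the spread of the tumor-free group, and values without it are given for the genes and lists it moved most. The array and these genes were both chosen from the values themselves, and leaving it out leaves 2 tumor-free arrays that correlated at 0.957. Adjusted p values given below without tumor-free 1 are therefore descriptive and add no support to a difference.

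**Figure D1:**
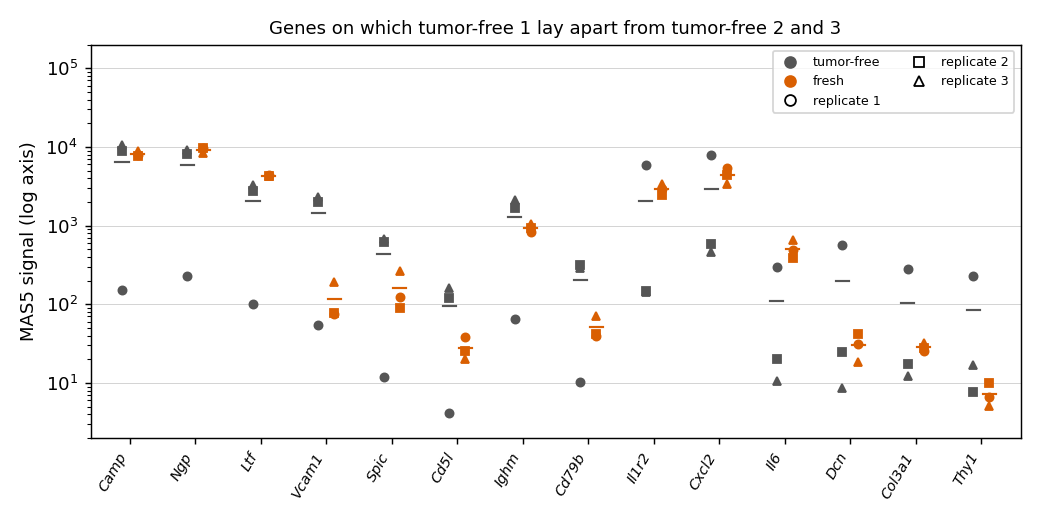
MAS5 signal (vertical, log axis) of 14 genes on the 3 tumor-free and 3 fresh arrays, 1 point per array with its shape giving the replicate number and a short line at each group's mean. For Camp, Ngp and Ltf the circle of tumor-free 1 lies below every other array, and for Dcn, Col3a1 and Thy1 it lies above every other.

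Of 8695 probe sets tested, 165 (1.90%) passed an adjusted p of 0.05, 82 higher (0.943%) and 83 lower (0.955%) in fresh cells, and 1449 had an unadjusted p under 0.05. Of these, 12 of the higher and 7 of the lower probe sets had no single gene symbol and are not named. With each gene represented by its brightest probe set, 56 of 6371 genes rose (0.879%) and 68 fell (1.07%). The median log2 difference over all genes tested was -0.01. The groups did not overlap for any of the 124 called genes (1.95%), beside 9.21% of all genes tested that lay wholly higher and 14.0% that lay wholly lower in fresh cells. Since every called gene was separated, the separation stated below for single called genes adds nothing to their calls. The rising genes divided into 17 members of the pancreas lists (digestive enzymes, other acinar genes and the Reg family) and 39 others, whereas none of the 68 falling genes was in those lists.

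The counts depended on single arrays. Without tumor-free 1 they rose to 272 higher and 352 lower probe sets. Without tumor-free 2 or tumor-free 3 they were 45 higher each, with 20 and 21 lower, and without fresh 1 or fresh 2 they were 37 and 41 higher with 26 and 21 lower. Leaving out fresh 3 gave 79 higher and 124 lower. Leaving out cultured 3, which enters only through the spread, the filter and the offset, gave 98 and 128. Of the called genes, 121 of 123 tested without tumor-free 1 were still called, against 42 and 46 of 122 without tumor-free 2 and 3, and 45, 46 and 87 of 124 without fresh 1, 2 and 3. A call that held in all 9 such fits, cultured arrays included, was found for 13 of the 17 pancreas-list genes, 11 of the 39 other rising genes and 15 of the 68 falling genes, counting Tspan4, which the filter left out of the 3 fits without a tumor-free array. The 11 include 2210010C04Rik, a trypsinogen gene, and the kallikrein-related Klk1b1 and Klk1b22. The pancreas lists as drawn did not hold these genes, so the 39 others are not free of genes of pancreas type.

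**Figure D2:**
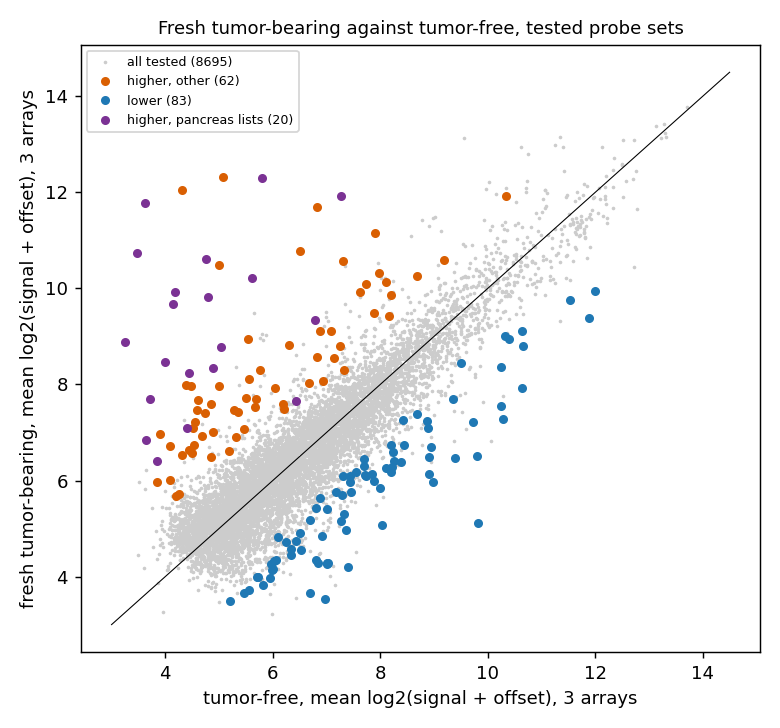
Mean log2(signal + 7.83) of the 3 fresh arrays (vertical) against that of the 3 tumor-free arrays (horizontal) for the 8695 probe sets tested, with a line where both are equal. The called probe sets are colored: 20 of the pancreas lists and 62 others above the line, the latter with the 12 that have no single symbol, and 83 below it.

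The largest rises were genes of the exocrine pancreas. All 5 Reg family members tested rose (median log2 difference 5.74), as did 7 of 10 digestive enzyme genes (3.01) and 5 of 10 other acinar genes (1.67), beside 0.879% of all genes tested. The filter used the mean over all arrays, so a gene could pass it through its fresh values alone. Reg3g and Zg16, near or below the offset on all tumor-free and cultured arrays, passed in this way. Over all members on the array, tested or not, the medians were 5.74 (5 genes), 3.14 (12) and 0.67 (16). The shares of tested genes that rose are therefore descriptive. In bulk samples, more cells of a type and more RNA per cell cannot be told apart. Promoter stretches of 2 of these genes are shown because both hold the letters bound by PTF1, the transcription factor complex of acinar cells, taken here as an E-box (CANNTG) followed after 4 to 7 bases by TTTCC on either strand. The stretches are from the RefSeq promoter table of GRCm38.p6, on the minus strand of the genome and in the direction of the gene, with the matched letters in capitals. The match begins 205 bases before the start of Ctrb1 at chr8:111691176-111691240 and 184 bases before that of Reg3g at chr6:78469017-78469083, where it lies on the opposite strand.
Ctrb1: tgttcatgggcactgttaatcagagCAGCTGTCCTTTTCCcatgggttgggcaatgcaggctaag
Reg3g: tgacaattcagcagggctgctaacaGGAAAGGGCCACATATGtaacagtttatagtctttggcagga
This layout was present in the 250 bases before the start in 2 of 48 rising genes matched to the table, in 2 of 52 falling genes (Gdap10 and Mrc1), in 1.78% of the 5120 tested genes matched and in 1.42% of all 32851 promoters. A match describes letters, not a bound site.

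The Reg genes encode small secreted C-type lectins that acinar cells make in quantity when the pancreas is injured or inflamed. Reg2 had signals of 3.84, 5.23 and 4.36 on tumor-free 1, 2 and 3 and of 4187, 3811 and 2735 on fresh 1, 2 and 3. Its tumor-free values all lay below the offset, the fresh values were among the bright signals of the array, and the log2 difference was 8.16 ± 0.56 (adjusted p = 4.14e-05). Reg3b stood at 65.6, 14.7 and 97.2 in tumor-free and 6170, 5988 and 3462 in fresh cells (6.50 ± 0.59, adjusted p = 0.000263). Reg3a went from 21, 8.96 and 4.53 to 1218, 1103 and 664 (5.74 ± 0.41, adjusted p = 5.51e-05). Within each of these genes fresh 3 was the lowest of the fresh arrays and still far above every tumor-free array. Reg1 rose by 4.60 ± 0.35 and Reg3g by 3.99 ± 0.43, and all 5 calls held in each of the 9 fits with 1 array left out.

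Among the enzyme genes, the trypsinogen Prss2 had signals of 39.7, 19.1 and 7.55 in tumor-free and 2207, 1705 and 994 in fresh cells (log2 difference 5.85 ± 0.79, adjusted p = 0.0039). The chymotrypsinogen Ctrb1 had a measurable level in the tumor-free arrays, 156, 132 and 154, and reached 4390, 4327 and 3042 in fresh cells (4.64 ± 0.31, adjusted p = 4.14e-05). The groups were separated in both genes, and the 3 tumor-free values of Ctrb1 lay close together. Genes of fat digestion also rose, namely the lipase-related Pnliprp1 by 5.54 ± 0.54, colipase (Clps) by 3.75 ± 0.47 and the bile salt-activated lipase Cel by 2.56 ± 0.32. The chymotrypsin-like protease Ctrl rose by 3.46 ± 0.59 and the elastase Cela2a by 1.22 ± 0.24, and both lost the call in some fits with 1 array left out, with adjusted p values of up to 0.0833 and 0.145. The other 3 members tested were not called: the lipase-related Pnliprp2 (1.32, adjusted p = 0.0953), the elastase Cela1 (0.86, adjusted p = 0.398) and the phospholipase Pla2g1b (0.38, adjusted p = 0.475). The ribonuclease Rnase1 fell under the filter on low signals, with 0.42, 1.28 and 0.78 in tumor-free and 139, 136 and 40.8 in fresh cells, and was not tested.

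Other secretory genes of acinar cells followed. Dmbt1, a scavenger receptor-like secreted protein, rose by 5.02 ± 0.53, the zymogen granule lectin Zg16 by 4.47 ± 0.31, tissue kallikrein Klk1 by 3.81 ± 0.29 and the granule protein syncollin (Sycn) by 2.56 ± 0.50. Zg16 stood at 7.95, 7.74 and 8.92 in tumor-free and 409, 401 and 256 in fresh cells, and again the lowest fresh value was on fresh 3. The kallikrein-related Klk1b5 rose by 2.69 ± 0.42. The other 5 acinar genes tested were not called, among them the acinar transcription factors Nr5a2 (0.53) and Rbpjl (-0.20) and the water channel Aqp8 (0.78).

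Genes of the other cells of the pancreas and of the secretory apparatus did not pass the test. Of 7 duct and epithelial genes tested 0 were called, the largest difference being that of Muc1, a membrane mucin (1.31, adjusted p = 0.0985). Only 2 islet genes passed the filter, Ppy (0.47) and Chga (-0.74), and neither was called. The insulin gene Ins2 had signals of 2.60 to 2.88 in tumor-free and 3.11 to 5.12 in fresh cells, all under the offset. Of 20 chaperone and secretory stress genes of the endoplasmic reticulum, which acinar cells carry in high amounts and leukocytes carry too, 0 were called and the median was -0.23, or 0.05 without tumor-free 1. The chaperone Hspa5 stood at 2904, 1153 and 1009 in tumor-free and 1287, 1144 and 1237 in fresh cells, and the groups overlapped.

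**Figure D3:**
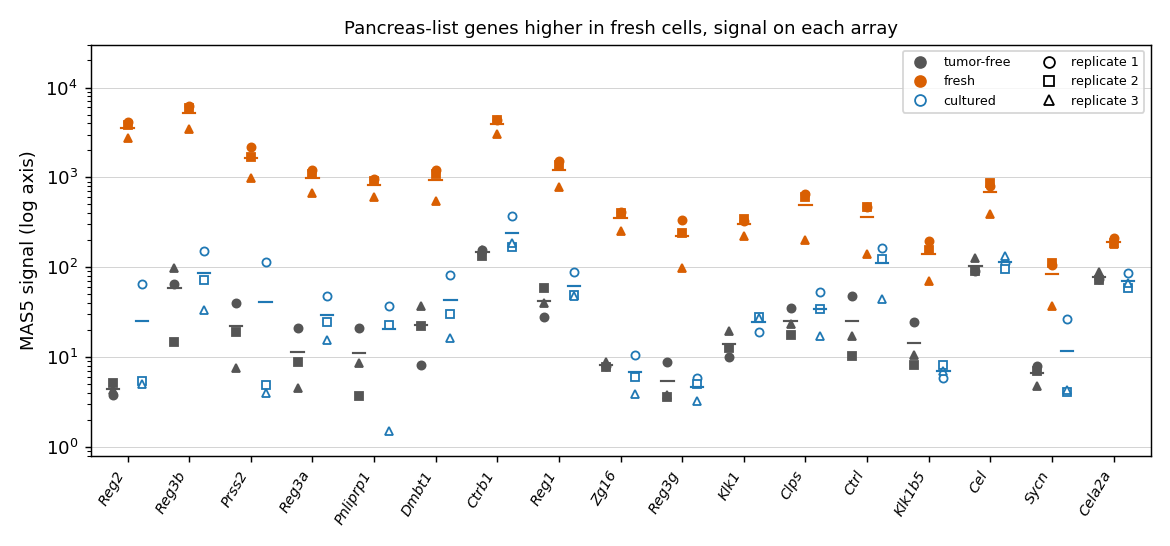
MAS5 signal (vertical, log axis) of the 17 called pancreas-list genes on the 9 arrays, 1 point per array, with color for the group, shape for the replicate number and a short line at each group's mean. The fresh values lie above all tumor-free values for each gene, and the triangle of fresh 3 is the lowest fresh point in 17 of 17.

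The 33 pancreas-list genes on the array together held 0.0872%, 0.0926% and 0.113% of the array's signal on tumor-free 1, 2 and 3 and 1.43%, 1.38% and 0.836% on fresh 1, 2 and 3. On cultured 1, 2 and 3 they held 0.135%, 0.0938% and 0.0781%. The groups of uncultured cells did not overlap, and the cultured values bracketed the tumor-free ones. Gene by gene, cultured 2 and 3 lay within or below the tumor-free range for 10 of the 17 rising pancreas-list genes, while cultured 1 lay above it for 12. The median ratio of the cultured to the tumor-free mean was 1.63 over these genes, 1.59 over the 39 other rising genes and 0.474 over the 68 falling genes.

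The pancreas-list genes shared an order among the fresh arrays. Their lists were chosen with earlier results of these data known. Genes of the same cells can also vary together, so the 17 genes are not independent observations of this order. Fresh 3 was the lowest fresh array in 17 of 17, against 10 of the 39 other rising genes and 49.3% of all genes tested. Its signal was 29.7% to 91.0% of the mean of fresh 1 and 2 over the 17 genes (median 54.7%), against a median of 110% (28.9% to 250%) over the 39 others and of 88.7% over all genes tested. Clps (31.7%), Ctrl (29.7%), Reg3g (33.9%) and Sycn (34.5%) lay at the low end, and Cela2a (91.0%) at the high end. Of the rising genes outside the lists, 2210010C04Rik, which encodes a trypsinogen, lay at 28.9%, the kallikrein-related Klk1b22 at 59.2% and Klk1b1 at 91.7%. Fas, Csf3, Sod2, Nfkb2 and Ehd1 lay at 169% to 250%, so fresh 3 was their highest array. Fresh 3 also had the lowest spike-in signal of the fresh arrays (8.99 against 9.91 and 9.86), whose part in this order was not tested.

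**Figure D4:**
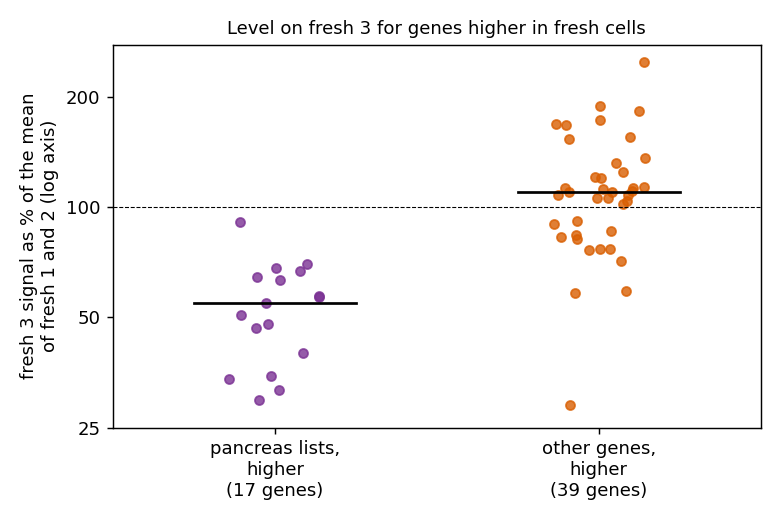
Signal on fresh 3 as a percentage of the mean of fresh 1 and 2 (vertical, log axis), 1 point per rising gene, for 17 pancreas-list and 39 other genes, with a line at each median. The pancreas-list genes lie between 29.7% and 91.0%, all under 100%, and the other genes lie on both sides of it.

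Outside the pancreas lists, the largest rise was that of Il1a, the cytokine interleukin 1 alpha, a signal of injured and activated cells. It had signals of 280, 51.8 and 78 in tumor-free and 3842, 3425 and 2773 in fresh cells (log2 difference 4.87 ± 0.63, adjusted p = 0.00274), and the call held in all 9 fits with 1 array left out. Without tumor-free 1 the difference was 5.54. Its level on cultured arrays was 569, 228 and 1207. Il10, an anti-inflammatory cytokine that CD11b+ cells of tumor-bearing mice are known to secrete, went from 3.5, 19.6 and 3.1 to 111, 107 and 137 (3.06 ± 0.53, adjusted p = 0.015). Csf3, the granulocyte growth factor G-CSF, went from 186, 74.9 and 81.4 to 334, 291 and 529 (1.75 ± 0.37, adjusted p = 0.0413). In all 3 genes the groups did not overlap. The calls of Il10 and Csf3 were lost in 3 and 6 of the 9 fits, with adjusted p values of up to 0.0799 and 0.186.

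These were the 3 called members of 19 cytokine and growth factor genes tested, beside 0.879% of all genes tested that rose, and the median of the list was 0.94. The values of several further members hung on tumor-free 1, where they lay in or near the fresh range. They were chosen after their values were seen. Il6, the acute phase cytokine, stood at 302, 19.9 and 10.6 in tumor-free and 494, 382 and 648 in fresh cells, with a log2 difference of 3.22 (adjusted p = 0.0861) that became 4.48 without tumor-free 1 (adjusted p = 0.000102). The receptor antagonist Il1rn stood at 1906, 267 and 205 against 2304, 2303 and 2993 (2.39, adjusted p = 0.1), and 3.38 without that array (adjusted p = 0.000102). For Tnf the difference was 2.25 (adjusted p = 0.191) and 2.93 without it (adjusted p = 0.048). Neither Il1b (0.58, adjusted p = 0.514) nor Tgfb1 (-0.67) was called.

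Of 25 chemokine and chemokine receptor genes tested, Cxcl1 rose and Cxcr2, which encodes its receptor on neutrophils, fell (median 0.26), beside 0.879% of all genes tested that rose and 1.07% that fell. Of 21 genes of the NF-kB pathway, which transmits inflammatory signals, 2 rose, beside the same 0.879%: Nfkb2, the precursor of the p52 subunit, and Tnip1, a partner of the inhibitor A20. Promoter stretches of Cxcl1 and Nfkb2 are shown because these were the rising genes that hold the NF-kB letters (GGGA, any base, then TTTCC), on either strand, within 250 bases of the start. The sequences are from the same RefSeq table, on the plus strand, with the match in capitals at 71 bases before the start of Cxcl1 (chr5:90891149-90891208) and 225 bases before that of Nfkb2 (chr19:46305680-46305739).
Cxcl1: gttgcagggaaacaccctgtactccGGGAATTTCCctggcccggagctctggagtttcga
Nfkb2: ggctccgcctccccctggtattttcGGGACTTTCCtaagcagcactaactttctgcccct
The letters were in 2 of 48 rising and 0 of 52 falling genes matched, in 0.605% of the tested genes matched and in 0.356% of all promoters.

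Cxcl1, a chemoattractant of neutrophils, had signals of 774, 167 and 93.6 in tumor-free and 2478, 2327 and 2016 in fresh cells (log2 difference 3.24 ± 0.58, adjusted p = 0.0178). Tumor-free 1 was the highest of its group and lay below all fresh arrays, and without it the difference was 4.09. Cxcr2 went the other way, from 163, 247 and 275 to 62.6, 51 and 75.2 (-1.72 ± 0.36, adjusted p = 0.0385), a call that held in 3 of the 9 fits. Nfkb2 stood at 158, 153 and 124 against 382, 328 and 671 (1.55 ± 0.30, adjusted p = 0.0261), with the high value on fresh 3. Tnip1 rose from 156, 227 and 329 to 727, 667 and 736 (1.61 ± 0.27, adjusted p = 0.0137). Across the NF-kB list the median was 0.84, and 9 of 21 genes lay wholly higher in fresh cells and 0 wholly lower, against 9.21% and 14.0% of all genes tested. Uncalled members with large differences were the adaptor Traf1 (3.15, adjusted p = 0.0542, and 2.35 with 0.0383 without tumor-free 1), the A20 gene Tnfaip3 (2.52, adjusted p = 0.124, and 3.56 with 0.00139) and Bcl3 (1.80, adjusted p = 0.0925, and 1.55 with 0.0993).

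The remaining rises included regulators of transcription, death and signaling. Batf, a leucine zipper factor of activated leukocytes, went from 29, 16.5 and 19.1 to 191, 147 and 230 (log2 difference 2.75 ± 0.32, adjusted p = 0.00168). Id2, an inhibitor of helix-loop-helix factors, rose by 1.59 ± 0.26, the elongation factor Ell2 by 2.34 ± 0.37 and the polycomb partner Jarid2 by 1.57 ± 0.32. Bcl2l11, which encodes the death-promoting protein Bim, went from 382, 214 and 234 to 1105, 1191 and 1036 (2.02 ± 0.29, adjusted p = 0.00502). The death receptor Fas rose by 2.67 ± 0.59 (adjusted p = 0.0475), a call that held in 1 of the 9 fits. The groups were separated in each of these genes.

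Trim13, a ubiquitin ligase of the endoplasmic reticulum, stood at 13.9, 19.9 and 15.3 in tumor-free and 154, 177 and 176 in fresh cells (2.88 ± 0.25, adjusted p = 0.000242). Its cultured values of 133, 91.3 and 94.2 were also above every tumor-free array. Membrane and vesicle genes that rose were the G protein-coupled receptor Gpr132 (2.63 ± 0.33), the endocytic ATPase Ehd1 (2.03 ± 0.30), the potassium channel Kcnn4 (1.90 ± 0.23), the vesicle protein Vamp7 (2.06 ± 0.45) and the Arf exchange factors Cyth1 (2.20 ± 0.42) and Cyth3 (1.39 ± 0.31). Sod2, the mitochondrial superoxide dismutase, rose by 2.24 ± 0.49, and the fungal pattern receptor Clec4e by 1.41 ± 0.31. Gpr132, Ehd1, Kcnn4 and Trim13 kept the call in all 9 fits, and Sod2, Vamp7 and Clec4e in 2, 3 and 1 of them. The cytokine receptor Lifr rose by 1.86 ± 0.35, and 2 further probe sets of it were called at 3.59 and 2.66. Ghrl, the hormone ghrelin of the stomach, rose by 2.20 ± 0.28 to signals of 83.3 to 102, from 9.36 to 21.4.

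Over the 39 rising genes outside the pancreas lists, tumor-free 1 was the highest tumor-free array in 26, against 44.8% of the 3134 genes tested with a higher fresh mean. Without it 38 of the 39 were still called. For the 68 falling genes it was the lowest tumor-free array in 45, against 52.5% of 3237 genes with a lower fresh mean, and 66 were still called without it.

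**Figure D5:**
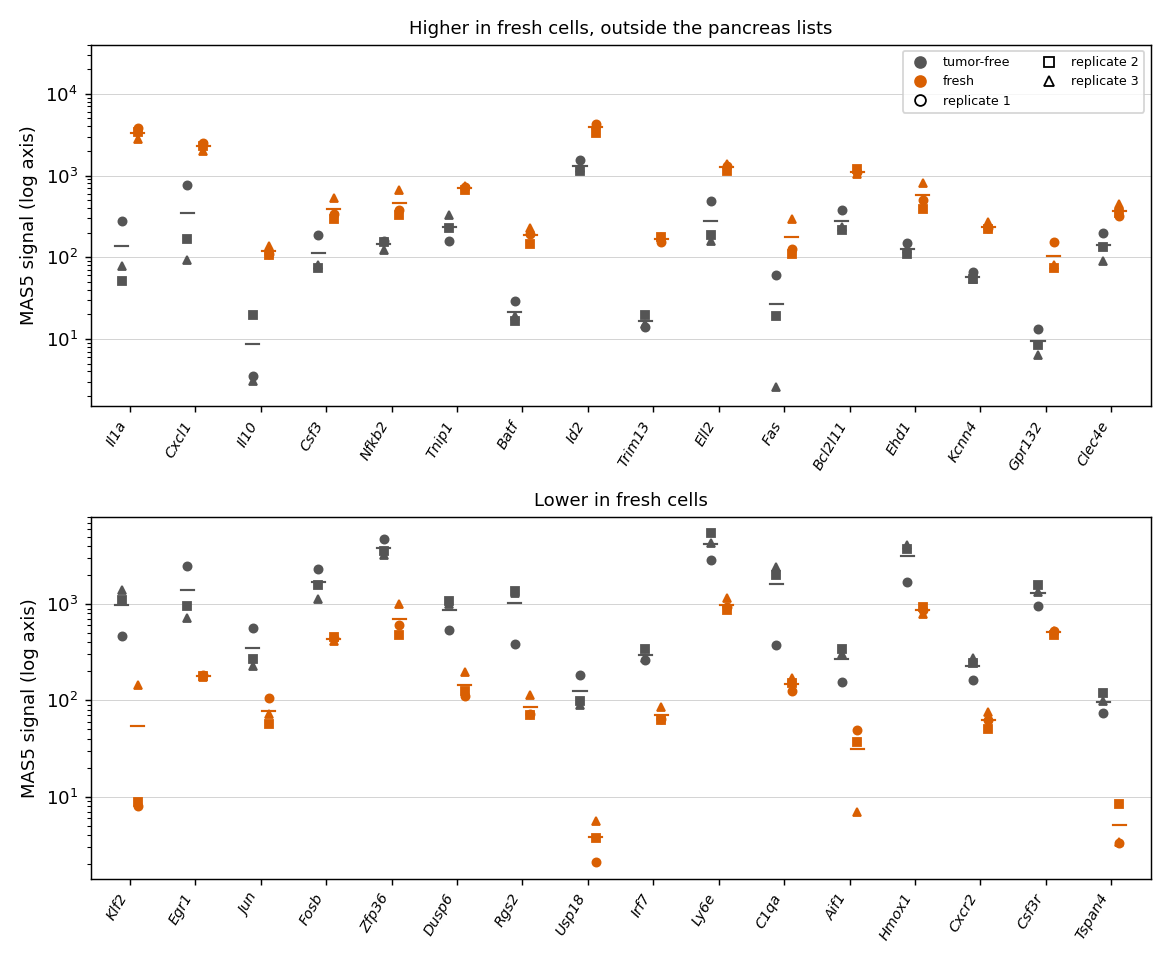
MAS5 signal (vertical, log axis) of 16 genes higher in fresh cells outside the pancreas lists (upper panel) and 16 lower (lower panel), 1 point per array with its shape giving the replicate number and a short line at each group's mean. The points of the 2 groups are separated for every gene shown, with tumor-free 1 nearest to the fresh points for genes such as Cxcl1 and C1qa.

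Among the largest falls were immediate early genes, which cells switch on within minutes of a stimulus, and related transcription factors. Of 28 such genes tested, 8 fell and 0 rose (median -0.92), beside 1.07% of all genes tested that fell, and 15 of the 28 lay wholly lower in fresh cells, against 14.0% of all genes tested. Egr1, a zinc finger factor of growth signals, had signals of 2518, 950 and 724 in tumor-free and 184, 179 and 177 in fresh cells (log2 difference -2.69 ± 0.41, adjusted p = 0.00697), and the call held in all 9 fits. A further, dimmer probe set of Egr1 went the other way without a call (0.97). Klf2, a factor of resting leukocytes, went from 462, 1095 and 1390 to 8.06, 8.9 and 146 (-4.70 ± 0.89, adjusted p = 0.0252). Fresh 3 was the highest fresh array for Klf2 by far, and the groups still did not overlap. The AP-1 subunits Jun (-1.99 ± 0.36) and Fosb (-1.87 ± 0.32), the stress factor Atf3 (-1.45 ± 0.29) and Klf4, a factor of monocytes (-1.65 ± 0.27), also fell. Fos stood at 8341, 6271 and 5910 against 1684, 1616 and 960, a difference of -2.29 that missed the threshold (adjusted p = 0.0529). Other members were higher without a call, such as Gadd45b (2.19, adjusted p = 0.214) and Ier3 (1.82, adjusted p = 0.347), whose signals on tumor-free 1 were 940 and 7813 against at most 95.1 and 529 on the other tumor-free arrays.

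Zfp36, which encodes tristetraprolin, a protein that binds AU-rich elements and speeds the decay of cytokine mRNAs, is in the same list. Its promoter is shown because it was 1 of 2 falling genes, with Lima1, that hold a CArG box, the letters bound by serum response factor, within 250 bases of the start. The sequence is from RefSeq, GRCm38.p6, chr7:28379252-28379311, minus strand, with the match in capitals at 58 bases before the start.
Zfp36: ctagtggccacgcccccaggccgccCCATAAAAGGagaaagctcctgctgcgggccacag
The box, searched on both strands, was in 2 of 52 falling and 0 of 48 rising genes matched and in 1.5% of the tested genes matched. Zfp36 had signals of 4739, 3547 and 3222 in tumor-free and 601, 478 and 1003 in fresh cells (log2 difference -2.50 ± 0.48, adjusted p = 0.0252). Zfp36l2, a relative of the same function, went from 1534, 1831 and 1403 to 600, 539 and 493 (-1.53 ± 0.22, adjusted p = 0.00582). All fresh values of both genes lay below all tumor-free values, and Zfp36l2 kept the call in all 9 fits, Zfp36 in 5.

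Rgs2, Dusp6 and Rhob, which act in signaling, were also among the largest falls. Of the list of 17 G protein regulators and ion transport genes that holds Rgs2, 2 fell (Rgs2 and Slc12a2), 1 rose (Kcnn4) and 14 were not called (median -0.11). Of all genes tested, 1.07% fell and 0.879% rose. Rgs2, which shortens G protein signals, went from 390, 1377 and 1293 to 71.6, 70.1 and 114 (log2 difference -3.30 ± 0.48, adjusted p = 0.00571). Dusp6, a phosphatase of the kinase ERK, went from 542, 1083 and 992 to 112, 126 and 198 (-2.50 ± 0.36, adjusted p = 0.00576). The small GTPase Rhob stood at 3137, 1017 and 1244 against 237, 250 and 216 (-2.72 ± 0.40, adjusted p = 0.00602). Tumor-free 1 was the lowest of its group for Rgs2 and Dusp6 and the highest for Rhob, and the fresh arrays lay close together in Rhob. The transcription factor Cebpd fell by 1.87 on the log2 scale and the cell cycle gene Ccnd1 by 1.6, and 27 other cell cycle genes tested were not called (median of the 28 genes 0.07).

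Interferon response genes were lower in fresh cells, mostly without passing the test. Of 19 type I interferon genes tested, 2 fell, 18 lay wholly lower in fresh cells and 0 wholly higher (median -1.63). Of all genes tested, 1.07% fell and 14.0% lay wholly lower. Usp18, which removes the modifier ISG15 from proteins, had signals of 185, 98.8 and 88.7 in tumor-free and 2.09, 3.7 and 5.59 in fresh cells (log2 difference -3.45 ± 0.60, adjusted p = 0.0162). Irf7, the factor that drives interferon genes, went from 261, 345 and 273 to 63.8, 62.6 and 84.7 (-1.95 ± 0.39, adjusted p = 0.0304). The Irf7 call held in 4 of the 9 fits, and a further probe set of Irf7 was not called (-0.33, adjusted p = 0.662). The fresh values of Usp18 lay below the offset, and its call was lost in 3 of the 9 fits. Ifit3 (-3.06, adjusted p = 0.172), Ifit2 (-2.77, adjusted p = 0.219) and Mx1 (-2.09, adjusted p = 0.167), which hinder viral RNA, were not called. On the cultured arrays, which share the estimate of the spread, Ifit3 stood at 13.2, 40.6 and 886. Of 23 interferon gamma response genes 0 were called, 11 had an unadjusted p under 0.05 (against 1449 of all 8695 probe sets), 14 lay wholly lower (against 14.0% of all genes tested) and the median was -0.93. Its largest difference was that of the GTPase Ifi47, at 155, 178 and 207 against 23.8, 7.36 and 17.1 (-3.03, adjusted p = 0.066). Outside these lists Ly6e, an interferon-induced surface protein, fell from 2892, 5429 and 4327 to 931, 861 and 1163 (-2.05 ± 0.37, adjusted p = 0.0203), and the helicase Mov10 fell by 1.85 on the log2 scale. The element of interferon-stimulated promoters (GAAA, any 2 bases, then GAAA, on either strand) was in 2 of 52 falling genes matched (Serpinb6a and Aif1), 1 of 48 rising genes and 3.44% of tested genes matched.

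Of 12 red pulp macrophage genes tested, 3 fell (median -1.47), and of 23 general macrophage genes 2 fell (median -0.22), beside 1.07% of all genes tested. C1qa, a chain of the complement component C1q, had signals of 380, 2019 and 2426 in tumor-free and 126, 151 and 171 in fresh cells (log2 difference -2.99 ± 0.62, adjusted p = 0.0357). C1qb went from 268, 975 and 1096 to 76.1, 90.3 and 77 (-2.91 ± 0.53, adjusted p = 0.0213), with a further probe set at 0.48 that was not called. Hmox1, the heme-degrading enzyme, went from 1685, 3774 and 4089 to 864, 939 and 784 (-1.78 ± 0.34, adjusted p = 0.0257). In each of the 3 genes tumor-free 1 lay between the fresh arrays and the other tumor-free arrays, and without it the differences were -3.83, -3.55 and -2.18. Vcam1, at 55.2 on tumor-free 1 and 75.5 to 194 in fresh cells, was not called (-2.56, adjusted p = 0.267) and had a difference of -4.25 without that array (adjusted p = 0.000136). The summed signal of 9 red pulp markers was 3449 on tumor-free 1, 12894 and 14030 on tumor-free 2 and 3, and 2030 to 2198 in fresh cells. The median of the list was -2.15 without tumor-free 1 and 0.09 among the arrays of high spike-in signal, where tumor-free 1 is the only tumor-free array.

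The 2 called general macrophage genes were Aif1 and Mrc1. Aif1, a calcium-binding protein of macrophages, went from 155, 342 and 307 to 49.2, 37.4 and 6.98 (log2 difference -2.96 ± 0.57, adjusted p = 0.0261). The mannose receptor Mrc1 stood at 861, 322 and 365 against 110, 98.3 and 195 (-1.80 ± 0.39, adjusted p = 0.0433), and here tumor-free 1 was the highest. The lysosomal protease Lgmn, which processes antigen, fell from 333, 366 and 316 to 89.9, 92.5 and 118 (-1.69 ± 0.23, adjusted p = 0.00464) and kept the call in all 9 fits. It was the 1 called member of 13 MHC class II and antigen processing genes, whose median was -0.42, beside 1.07% of all genes tested that fell. The class II chains H2-Aa (-0.08), H2-Ab1 (-0.42) and H2-Eb1 (-0.19) were not called.

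Of 23 tetraspanin and adhesion genes tested, Tspan4 and Icam2 fell and 21 were not called (median -0.21), beside 1.07% of all genes tested that fell. The tetraspanin Tspan4 had signals of 74.2, 118 and 97.7 in tumor-free and 3.3, 8.43 and 3.39 in fresh cells (log2 difference -3.02 ± 0.33, adjusted p = 0.000868). The sodium-potassium-chloride carrier Slc12a2 stood at 198, 777 and 796 against 58, 61.1 and 47.1 (-3.01 ± 0.46, adjusted p = 0.00697). Slc12a2 kept the call in all 9 fits. Tspan4 passed the filter only through its tumor-free values, since its fresh and cultured values lay near or below the offset, and it was not tested in the 3 fits without a tumor-free array. The drug transporter Abcc3 fell by 2.41 on the log2 scale, the integrin chain Itgb5 by 2.16, the lymphocyte receptor Ly9 by 1.89 and the adhesion molecule Icam2 by 1.71, although the Icam2 call (adjusted p = 0.0496) held in 1 of the 7 fits that tested it. Ly9 had nearly equal tumor-free signals of 72.3, 74.1 and 73.5 against 15.7, 17.1 and 9.93 in fresh cells. The DNA repair kinase Prkdc (-1.97 ± 0.29), the DNA methyltransferase Dnmt3a (-1.82 ± 0.34) and the corepressor Rere (-1.89 ± 0.28) fell too.

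Neutrophil genes were seldom called. Besides Cxcr2, the G-CSF receptor gene Csf3r fell from 965, 1596 and 1351 to 530, 473 and 528 (log2 difference -1.31 ± 0.28, adjusted p = 0.0413). These were the 2 called among 13 mature neutrophil genes (median 0.66), beside 1.07% of all genes tested that fell. The Csf3r call held in 2 of the 9 fits, with an adjusted p of up to 0.202, and 2 further probe sets of Csf3r were not called (-0.08 and -0.89). Csf3, the gene of its ligand, was among the rises. Of 11 primary granule genes 0 were called by limma, and the median was 0.58. The unadjusted p was under 0.05 for 5 (against 1449 of all 8695 probe sets), and 5 lay wholly higher in fresh cells (against 9.21% of all genes tested). Mpo, the myeloperoxidase of promyelocytes, stood at 2.08, 55 and 95.2 against 223, 183 and 790 (3.03, adjusted p = 0.0953). The protease Ctsg stood at 2.71, 3.35 and 8.51 against 38.9, 52.1 and 140 (2.58, adjusted p = 0.0508), with the highest value on fresh 3 as for Mpo. Of 18 secondary and tertiary granule genes 0 were called (median 1.0, and 0.74 without tumor-free 1). The unadjusted p was under 0.05 for 3, near the share over all probe sets, and 8 lay wholly higher, against the same 9.21%. Lactoferrin (Ltf) had a difference of 2.11 with tumor-free 1 and of 0.51 without it, and Camp of 1.74 and -0.24. The collagenase Mmp8, at 1640 on tumor-free 1 against 141 and 218, had a difference of 2.53 with that array and of 3.58 without it (adjusted p = 4.2e-05).

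Products through which such cells restrain T cells were described from a list of 23 tested genes, of which Il10 rose and Hmox1 fell (median 0.58). Of all genes tested, 0.879% rose and 1.07% fell. Arg1, the arginase of suppressive myeloid cells, stood at 188, 16.4 and 18.6 in tumor-free and 6.2, 33.5 and 11.8 in fresh cells (-1.16, adjusted p = 0.417), and at 2751, 2403 and 2160 in cultured cells. Nos2, the inducible nitric oxide synthase, stood at 35.5, 13.6 and 9.81 against 14.1, 29 and 28.7 (0.28, adjusted p = 0.742). Neither gene separated the groups. Arg2 and Hif1a were uncalled with all arrays (1.02 and 1.40) and called without tumor-free 1 (1.65, adjusted p = 0.00372, and 2.09, adjusted p = 0.00227). These 4 genes, like Gadd45b and Ier3 above, were chosen after their values were seen.

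Markers of other leukocytes and of red cells gave no calls. The median was 0.50 over 17 erythroid genes tested, 8 of which lay wholly higher in fresh cells (against 9.21% of all genes tested). These 8 include the metallothioneins Mt1 and Mt2, which are not confined to red cells. The summed signal of 6 erythroid markers was 541, 2300 and 1979 in tumor-free and 4859, 4746 and 6509 in fresh cells. Most of that sum was the globin gene Hba-a1, at 336, 2028 and 1623 against 4269, 4203 and 5857. The median was -0.35 over 12 B cell genes, and -1.10 without tumor-free 1. The medians were 0.76 over 8 plasma cell, 0.38 over 11 T cell, -0.16 over 10 NK and cytotoxic, 0.30 over 12 dendritic cell and -0.12 over 14 stroma and endothelial genes. Without tumor-free 1 the last 2 changed sign, to -0.09 and 0.52. The erythroid and the acinar sums were higher on all fresh than on all tumor-free arrays, but fresh 3 was the highest array for the erythroid sum and the lowest for the acinar sum (9671, 9262 and 5592). The part of these cells in the other results was not tested.

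For genes with more than 1 probe set, 33 further probe sets of the called genes were tested, of which 27 had the sign of the brightest one, 8 were called with the same sign and 0 with the opposite one. The 6 of opposite sign included those of Egr1 and C1qb given above, Ccnd1 (0.30) and Snx5 (0.51).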

How the data were processed

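CD11b+ spleen cells were profiled on 9 Affymetrix MG-U74Av2 arrays, of which 3 tumor-free and 3 fresh tumor-bearing arrays were compared. The deposited values are intensity, unlogged, with a MAS5 signal for each probe set on each array, as the submitters' processing notes name it. Which version of MAS5 was run, and how, is not given in the sources used here. Each array had a 2% trimmed mean of 100.06 to 100.08 and had thus been scaled before deposit. Without detection calls, a low signal cannot be placed above or below background. The number of arrays limits the precision.

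Signals were transformed to log2(signal + 7.83), where the offset is the values' 20th percentile and understates changes of dim genes. Left out were 66 control probe sets and, by mean level, the lowest 30%. In limma 3.58.1 (R 4.3.3) the 9 arrays were fitted together by 3 group means, with an intensity trend and 6 residual degrees of freedom. Tests were two-sided, with Benjamini-Hochberg adjustment over 8695 probe sets at 0.05.

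The platform annotation gave 1 symbol for 10855 probe sets, several for 396 and none for 1237, and 10839 were matched to RefSeq by gene ID. Genes were named from the 25 largest rises and 25 largest falls among called genes whose groups do not overlap. Others came from each list, up to 6 called members or the largest differences up to 4, and from the cell type markers. Not all were described. Undescribed among the 25 largest falls were Otulinl (-2.77), Sash1 (-2.75), Ptcd2 (-2.74), Jagn1 (-2.47), Atp13a1 (-2.07), Hlx (-2.01) and Atxn2 (-2.01). Genes outside this rule, such as Arg1, Nos2, Il1rn, Bcl3 and further called genes of a described role, were chosen after their values were seen. The members and the 34 lists were chosen with earlier results of these data known. On simulated data made from this comparison, 200 of 8695 probe sets were changed. The fit recovered 13%, 68.8% and 94.8% of log2 changes of 1, 2 and 4, with 6.2 false calls on average. These rates describe the simulated arrays only. How far they apply to the measured groups, where tumor-free 1 stood apart and counts shifted with single arrays, was not tested.

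Alternatives were quantile normalization, median centring, offsets at the 5th and 40th percentiles, a floor, no filter, a 50% filter, no trend and the 6 arrays alone. Others were the replicate number as a block and the spike-in class (arrays above or below the median spike-in signal) as a block and within classes. The last were a fit without the pancreas-list, islet, duct and epithelial genes, and fits with each array left out.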

Additional observations from a re-analysis of the deposited data

How the results depend on the processing

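Against 82 higher and 83 lower probe sets, the spike-in class as a block gave 129 and 148, the fit within the high class 322 and 401, and that within the low class 433 and 524. The within-class fits hold 1 or 2 arrays per group, rest on 3 residual degrees of freedom and assume that a lone array varies like the others. Leaving out the pancreas-list genes together with the islet and the duct and epithelial genes gave 52 higher. Leaving out 1 array at a time gave 37 to 272 higher and 20 to 352 lower, the highest counts being those without tumor-free replicate 1. The other alternatives gave counts within 1.5 times of these. By the labels, samples of different groups share only a replicate number. The deviations of same-numbered arrays correlated at 0.136, -0.2 and -0.019. With 1 array per group and number, these values cannot decide whether same-numbered arrays were paired. With the replicate number as a block, 89 probe sets were higher and 111 lower, and 111 of the 124 called genes were still called. No called gene reversed under any alternative run, and under the 6 arrays alone and median centring 87 of 123 and 91 of 124 were still called. Within the high spike-in class, where tumor-free 1 stands alone for its group, the difference reversed for Ctsl (-1.23), Il1r2 (-1.14), Spic (2.52), Cd5l (1.71) and Cd79a (1.27). There the medians reversed for the lists of chemokines (-0.37), MHC class II (0.74), red pulp macrophage (0.09), monocyte (0.20), mature neutrophil (-0.08), G protein and ion transport (0.06) and tetraspanin and adhesion genes (0.11). Those of 4 lists without a called member turned there too: B cell (1.03), islet (0.88), NK and cytotoxic (0.76) and glycolysis and hypoxia genes (-0.34). Within the low class the dendritic cell (-0.39), platelet (-0.05) and stroma (0.23) medians turned. Lists without a called member and with a median near 0, such as stroma, NK and islet genes, also changed sign under other alternatives. The monocyte median, -0.28 with all arrays, ranged from -0.38 without tumor-free replicate 1 to 0.05 without tumor-free replicate 2, and was 0.01 without fresh replicate 3. The cause was not tested. Depth is not defined for arrays, and signals near the offset of 7.83 carry little meaning as levels.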
